A study of Mus musculus with 6 samples.

Results

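The G1 cell-cycle machinery was examined in RNA-seq of adult CMs, as the D-type cyclins *Ccnd1*, *Ccnd2* and *Ccnd3*, their kinases *Cdk4* and *Cdk6*, the CIP/KIP inhibitors *Cdkn1a*, *Cdkn1b* and *Cdkn1c*, and the pocket proteins *Rb1* and *Rbl2*. These 10 genes were chosen by name, with earlier results of these data known, from 16448 genes in the table. The test was run on 11364 genes that reached 10 or more in 3 or more samples, and all 10 members were among them. The study compared CMs that can and cannot import long-chain fatty acids into mitochondria through the muscle isoform of carnitine palmitoyltransferase 1, encoded by *Cpt1b*. CMs of 3 CtrlCre mice (αMHC-Cre pos/+;Cpt1b +/+) were set against CMs of 3 Cpt1bcKO mice (αMHC-Cre pos/+;Cpt1b fl/fl), all C57BL/6 and 8 to 12 weeks old. Both groups carried the Cre transgene, which the αMHC promoter drives in CMs from embryonic stages onwards, so the deletion preceded adulthood. The cells were the low-speed pellet of enzymatically digested ventricles, taken without a sort for CMs, and the labels name no further treatment.

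Cells that leave quiescence pass through G1, the phase before DNA synthesis. D-type cyclins accumulate in response to growth factors, bind CDK4 or CDK6, and the active kinases phosphorylate the pocket proteins RB1, RBL1 and RBL2. Unphosphorylated pocket proteins hold E2F factors in check and, with the DREAM complex, keep genes of DNA replication silent. The CIP/KIP proteins p21 (*Cdkn1a*), p27 (*Cdkn1b*) and p57 (*Cdkn1c*) block cyclin-dependent kinases, and p21 is the best known target of p53. Rodent CMs withdraw from the cell cycle soon after birth, and cyclin D and p27 have both been studied as regulators of this exit. Much of the control of D-type cyclins and p27 acts on protein stability, which RNA does not measure.

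The D-type cyclins share a short motif near the amino terminus, leucine, any residue, cysteine, any residue and glutamate (LxCxE), through which they contact pocket proteins. The first 15 codons of each are shown because this contact links the cyclin members to the pocket protein members. Capitals mark the codons of the motif, and the sequences are those of GENCODE vM21 transcripts on GRCm38. They lie at chr7:144939649-144939693 on the minus strand for *Ccnd1*, chr6:127150729-127150773 on the minus strand for *Ccnd2* and chr17:47593655-47593699 on the plus strand for *Ccnd3*, each within a coding exon.
Ccnd1: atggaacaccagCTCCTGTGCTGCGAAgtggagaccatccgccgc
Ccnd2: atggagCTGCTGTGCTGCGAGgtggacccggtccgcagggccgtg
Ccnd3: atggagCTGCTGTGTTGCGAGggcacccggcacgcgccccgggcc
The motif occupies codons 5 to 9 in *Ccnd1* and codons 3 to 7 in both *Ccnd2* and *Ccnd3*. Translated coding sequences were 295, 289 and 292 residues long for *Ccnd1*, *Ccnd2* and *Ccnd3*. Aligned over their length, *Ccnd1* and *Ccnd2* were identical at 63.4% of aligned positions, *Ccnd2* and *Ccnd3* at 61.1%, and *Ccnd1* and *Ccnd3* at 51.0%.

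The values are read counts divided by a size factor for each sample and rounded, called normalized counts here. They summed to between 13393411 and 31722217 per sample, and to between 3146414 and 3551692 without mitochondrially encoded and rRNA genes. From the spacing of low values, reads on genes were estimated at 14900000 to 24500000 in 5 samples, where 1 read was worth a value of 0.682 to 1.3. It could not be resolved in Cpt1bcKO sample 2, and errors from counting alone were not computed. The mitochondrial rRNA gene *mt-Rnr2* took 63.2% to 64.6% of the sum in CtrlCre samples and 61.8%, 72.6% and 80.8% in Cpt1bcKO samples 1, 2 and 3. *Cpt1b* had 893 to 1861 normalized counts in CtrlCre and 211 to 353 in Cpt1bcKO samples. *Xist* was at 957 and 1080 in sample 1 of each group and at 23 to 78 in the other samples, and the labels give no sex. With limma, 178 of 11364 genes (1.57%) passed an adjusted *P* value below 0.05, with 75 higher (0.66%) and 103 lower (0.906%) in Cpt1bcKO CMs. When samples were instead scaled to their total without mitochondrially encoded and rRNA genes, the median over all genes of the log2 fold change moved from −0.0013 to 0.11. The split then became 102 higher and 74 lower, so that 58.0% rather than 42.1% of the called genes were higher.

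In brief, all 3 D-type cyclins were higher in every Cpt1bcKO sample than in any CtrlCre sample, and *Ccnd1* rose 2.26-fold. The inhibitor *Cdkn1b* was lower in every Cpt1bcKO sample, 1.53-fold on average. In the same samples the fibroblast marker sum averaged 1.82 and the CM marker sum 0.726 of the CtrlCre mean. The study reported lower levels of genes of maturation and contraction in these CMs, so the CM sum is not a measure of CM content. The part of cell makeup in the values of the members was not tested. The kinases *Cdk4* and *Cdk6*, the inhibitors *Cdkn1a* and *Cdkn1c* and both pocket protein genes overlapped between the groups. Only *Ccnd1* passed the adjusted test (1 of 10 members, against 1.57% of all genes tested and 0.66% higher). At an unadjusted *P* value below 0.05, the threshold of the study's methods, 5 of 10 members passed with limma. These were *Ccnd1*, *Ccnd2* and *Ccnd3*, higher, and *Cdkn1b* and *Rbl2*, lower, whereas 13.9% of all genes passed, 6.66% higher and 7.22% lower. The members were chosen with earlier results of these data known, so their counts beside the shares of all genes are not a test. Scaled to the total described above, 1221 of the genes passing unadjusted were higher and 500 lower, in place of 757 and 821, and the same number of members, 5, passed. No overlap between the groups was seen in 4 of 10 members, 3 higher and 1 lower, and in 18.7% of all genes (9.13% higher, 9.6% lower). The median log2 fold change was 0.31 over the 10 members and −0.0013 over all genes tested, and 7 members had a positive and 3 a negative value.

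**Figure D1:**
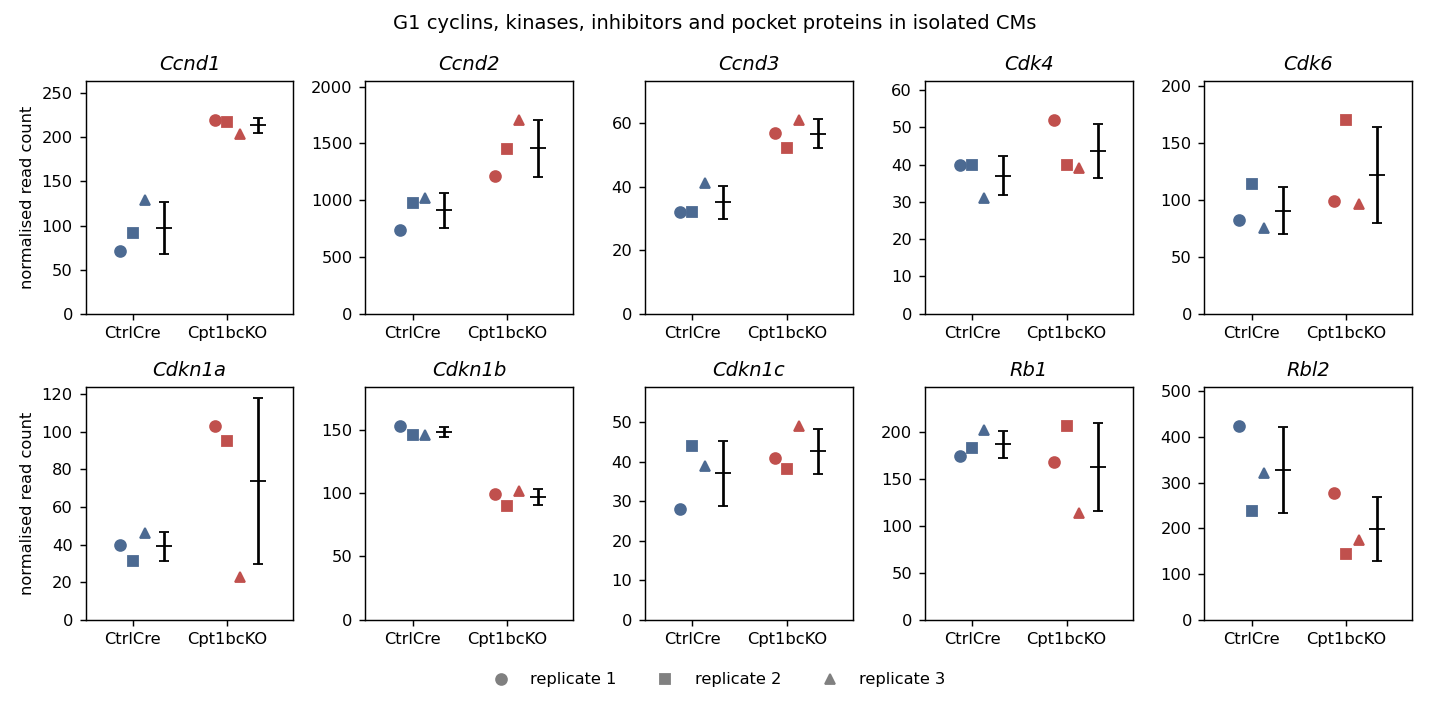
Normalized counts of the 10 members in each of the 3 CtrlCre and 3 Cpt1bcKO samples, each gene in its own panel, with bars for mean ± SD (*n* = 3). The 3 cyclin genes sit higher and *Cdkn1b* sits lower in all Cpt1bcKO samples, and the other 6 genes overlap between the groups.

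*Ccnd1* encodes cyclin D1, the D-type cyclin most closely tied to growth factor signalling (ENSMUSG00000070348, chromosome 7 from 144929931 to 144939869, minus strand, GRCm38). It had 71, 91 and 129 normalized counts in CtrlCre samples 1, 2 and 3 and 220, 217 and 204 in Cpt1bcKO samples 1, 2 and 3. The Cpt1bcKO values lay close together, while the highest CtrlCre sample stood well above the lowest. The means were 97.0 ± 29.5 and 214 ± 8.50 (SD, *n* = 3 each). On the log2 scale *Ccnd1* rose by 1.17 (standard error 0.222, 95% confidence interval 0.68 to 1.67, adjusted *P* = 0.0283, limma with Benjamini–Hochberg adjustment). Leaving out single samples kept the change between 0.97 and 1.4, but the adjusted *P* value from limma reached 0.0747 without CtrlCre sample 1, 0.113 without CtrlCre sample 2, 0.158 without Cpt1bcKO sample 2 and 0.0684 without Cpt1bcKO sample 3. Log2 fold changes are on the log2(value + 1) scale, which understates the change of low genes. In a mixed cell pellet, fewer cells of a type and less RNA per cell cannot be told apart. The *P* values weigh the difference between the groups against the spread of samples within them, which limma adjusts with the help of all genes tested.

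*Ccnd2* encodes cyclin D2 (ENSMUSG00000000184, chromosome 6 from 127125162 to 127151060, minus strand) and was the most abundant member. It had 736, 973 and 1018 normalized counts in CtrlCre samples and 1210, 1454 and 1708 in Cpt1bcKO samples. Every Cpt1bcKO value exceeded every CtrlCre value, and Cpt1bcKO sample 1 was the nearest to the CtrlCre samples. The log2 fold change of 0.68 (standard error 0.177, 95% confidence interval 0.29 to 1.07) did not pass adjustment (unadjusted *P* = 0.00306, adjusted *P* = 0.103, limma). Without Cpt1bcKO sample 1, the lowest of its group, it passed with an adjusted *P* of 0.0363 from limma, and over all fits that left out a single sample the adjusted *P* ranged up to 0.352. It was 0.00474 with a block for replicate number and 0.00518 with sex, read from *Xist*, as covariate (limma).

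*Ccnd3*, for cyclin D3 (ENSMUSG00000034165, chromosome 17 from 47505051 to 47599691, plus strand), was low. Its normalized counts were 32, 32 and 41 in CtrlCre and 57, 52 and 61 in Cpt1bcKO samples. The groups did not overlap, with a log2 fold change of 0.69 (standard error 0.235, 95% confidence interval 0.17 to 1.21, unadjusted *P* = 0.0148, adjusted *P* = 0.214, limma). The unadjusted *P* values of all 3 cyclin genes stayed below 0.05 in all 6 fits with limma that left out a single sample, with *Ccnd3* highest at 0.0484.

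**Figure D2:**
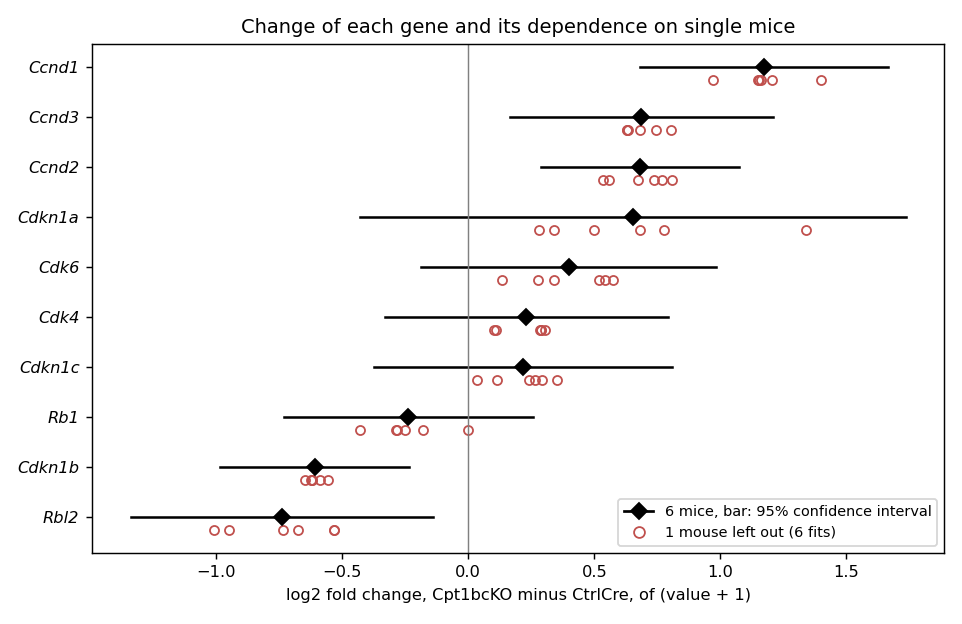
Log2 fold change of each member in Cpt1bcKO against CtrlCre CMs, with diamonds for the limma estimate, bars for the 95% confidence interval and open circles for the 6 fits that left out a single sample. The intervals of *Ccnd1*, *Ccnd2* and *Ccnd3* lie above 0, those of *Cdkn1b* and *Rbl2* below 0, and those of the other 5 members include 0.

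Read counts of different genes depend on gene length, so members were compared with each other as normalized counts per kilobase of exon. On this scale *Ccnd2* was at 96.6 ± 16.1 in CtrlCre and 155 ± 26.5 in Cpt1bcKO samples (mean ± SD, *n* = 3), and 91.9% of all genes tested were lower than its mean over both groups. *Ccnd1* was at 20.6 ± 6.26 and 45.4 ± 1.81 per kilobase, with 70.6% of genes lower. *Ccnd3* was at 3.99 ± 0.592 and 6.46 ± 0.514 per kilobase, with 17.3% of genes lower. Summed over the 3 genes, the D-type cyclins reached 96.9, 126 and 140 per kilobase in CtrlCre samples and 182, 207 and 232 in Cpt1bcKO samples, without overlap. *Ccnd1* made up 15.6%, 15.3% and 19.5% of that sum in CtrlCre and 25.7%, 22.3% and 18.7% in Cpt1bcKO samples. Its share overlapped, because Cpt1bcKO sample 3 lay below CtrlCre sample 3. *Ccnd2* was the major D-type cyclin transcript in all samples, at 70.7% to 81.8% of the sum, and *Ccnd3* stayed between 2.87% and 3.76%.

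**Figure D3:**
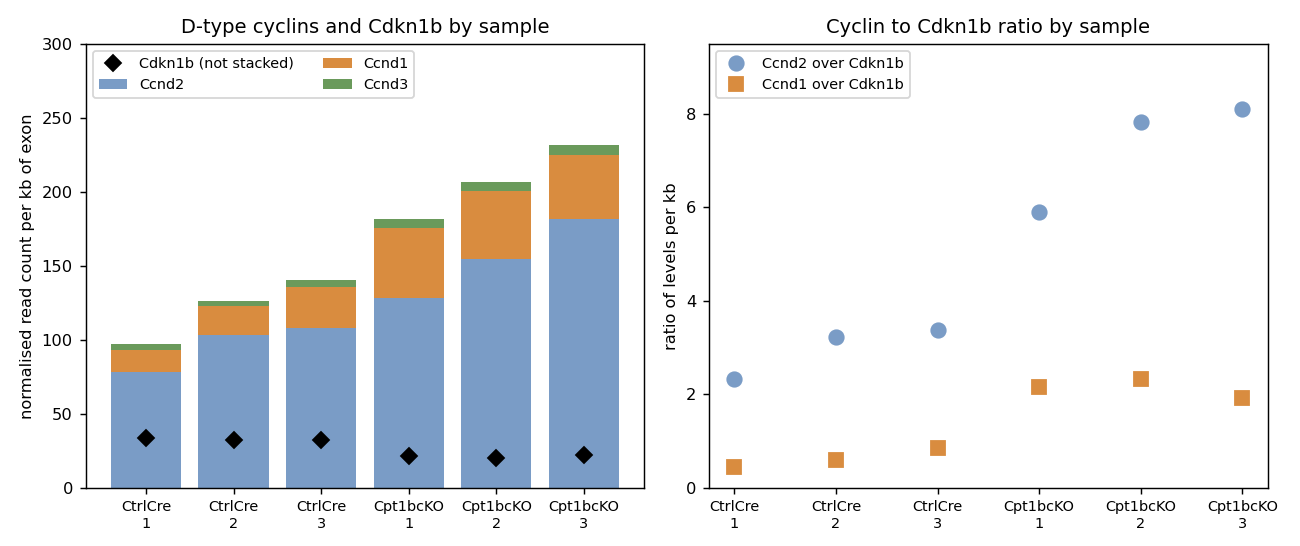
Left, normalized counts per kilobase of exon of the 3 D-type cyclins in each sample, stacked, with *Cdkn1b* as diamonds, and right, the ratio of *Ccnd2* and of *Ccnd1* to *Cdkn1b* on that scale. The stacked sum is between 96.9 and 140 in CtrlCre and between 182 and 232 in Cpt1bcKO samples, and both ratios are higher in each Cpt1bcKO sample than in any CtrlCre sample.

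The catalytic partners of the D-type cyclins did not pass the test. *Cdk4* (ENSMUSG00000006728, chromosome 10 from 127063534 to 127067920, plus strand) had 40, 40 and 31 normalized counts in CtrlCre and 52, 40 and 39 in Cpt1bcKO samples. These values overlapped, and the log2 fold change of 0.23 had a 95% confidence interval from −0.33 to 0.79 (adjusted *P* = 0.738, limma). *Cdk6* (ENSMUSG00000040274, chromosome 5 from 3343893 to 3531008, plus strand) had 82, 114 and 75 in CtrlCre and 99, 170 and 96 in Cpt1bcKO samples. Sample 2 was the highest of each group, and the interval ran from −0.19 to 0.98 around a log2 fold change of 0.40 (adjusted *P* = 0.549, limma). With a block for replicate number, *Cdk6* had an unadjusted *P* of 0.0416 and an adjusted *P* of 0.219 (limma). With that block and scaling to the total without mitochondrially encoded and rRNA genes, these were 0.0149 and 0.129 (limma). An increase as large as that estimated for *Ccnd3* lies within both intervals. Per kilobase, *Cdk4* was at 11.4 ± 1.6 and 13.4 ± 2.23 and *Cdk6* at 6.46 ± 1.49 and 8.70 ± 2.99 in CtrlCre and Cpt1bcKO samples, and *Cdk4* made up 50.3% to 69.3% of their sum.

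Among the inhibitors, *Cdkn1b* had the narrowest spread. It encodes p27, which holds cyclin-dependent kinases inactive in quiescent cells and also takes part in the assembly of cyclin D complexes (ENSMUSG00000003031, chromosome 6 from 134920401 to 134925513, plus strand). Its normalized counts were 153, 146 and 146 in CtrlCre and 99, 90 and 102 in Cpt1bcKO samples. CtrlCre samples 2 and 3 had the same value, and all Cpt1bcKO samples lay well below it. On the log2 scale the fold change was −0.61 (standard error 0.169, 95% confidence interval −0.98 to −0.24, unadjusted *P* = 0.00450, adjusted *P* = 0.128, limma). Fits without single samples gave −0.65 to −0.56, and the unadjusted *P* value of limma stayed below 0.05 in all 6. The adjusted *P* of limma was 0.0556 with a block for replicate number and 0.0483 with sex, read from *Xist*, as covariate.

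*Cdkn1a*, for p21 (ENSMUSG00000023067, chromosome 17 from 29090979 to 29100722, plus strand), split the Cpt1bcKO samples. It had 40, 31 and 46 normalized counts in CtrlCre samples and 103, 95 and 23 in Cpt1bcKO samples. Cpt1bcKO samples 1 and 2 lay above all CtrlCre samples, and Cpt1bcKO sample 3 was the lowest of all 6. The log2 fold change of 0.65 had a 95% confidence interval from −0.43 to 1.73 and did not pass (unadjusted *P* = 0.210, adjusted *P* = 0.595, limma). Every Cpt1bcKO sample moved this value. It was 0.28 without Cpt1bcKO sample 1 and 0.34 without Cpt1bcKO sample 2, and neither passed, and it was 1.34 without Cpt1bcKO sample 3, with an adjusted *P* of 0.0435 from limma. Sample 3 also had the highest share of *mt-Rnr2*, 80.8%, and the part of this in the value was not tested.

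*Cdkn1c*, for p57 (ENSMUSG00000037664, chromosome 7 from 143458339 to 143461050, minus strand), had 28, 44 and 39 normalized counts in CtrlCre and 41, 38 and 49 in Cpt1bcKO samples. The groups overlapped, with a log2 fold change of 0.22 (95% confidence interval −0.37 to 0.81, adjusted *P* = 0.770, limma). Per kilobase, the 3 inhibitors summed to 58.6, 62.4 and 64.1 in CtrlCre and 70.8, 65.1 and 52.9 in Cpt1bcKO samples, so the total overlapped. Of the shares in this sum, only that of *Cdkn1b* was without overlap between the groups, and no share was tested. *Cdkn1b* made up 57.4%, 51.4% and 50% of the sum in CtrlCre and 30.7%, 30.3% and 42.3% in Cpt1bcKO samples. *Cdkn1a* made up 14.0% to 20.2% in CtrlCre samples, 40.9% and 41% in Cpt1bcKO samples 1 and 2, and 12.2% in Cpt1bcKO sample 3. In that sample *Cdkn1c* was the largest of the 3, at 45.4%.

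The pocket proteins showed wider spreads than *Cdkn1b*. *Rb1* (ENSMUSG00000022105, chromosome 14 from 73195502 to 73325822, minus strand) had 174, 183 and 202 normalized counts in CtrlCre and 168, 206 and 113 in Cpt1bcKO samples. Cpt1bcKO sample 3 was low and the other 2 lay at CtrlCre levels. Its log2 fold change was −0.24 (95% confidence interval −0.73 to 0.26, adjusted *P* = 0.683, limma), and without that sample it was 0.00048. *Rbl2*, for p130, the pocket protein that prevails in quiescent cells (ENSMUSG00000031666, chromosome 8 from 91070057 to 91123844, plus strand), had 424, 238 and 321 in CtrlCre and 277, 143 and 175 in Cpt1bcKO samples. Sample 1 was the highest and sample 2 the lowest of each group, and the groups overlapped. The log2 fold change was −0.74 (standard error 0.270, 95% confidence interval −1.34 to −0.14, unadjusted *P* = 0.0206, adjusted *P* = 0.250, limma). The unadjusted *P* value of limma was below 0.05 in 2 of 6 fits that left out a single sample. *Rbl2* passed with an adjusted *P* of 0.0113 under a block for replicate number and 0.0233 with sex, read from *Xist*, as covariate (limma). The replicate numbers were not taken to pair the samples.

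Set in order of the level per kilobase, CtrlCre CMs had *Ccnd2* first, then *Rbl2* (43.4 ± 12.3), *Cdkn1b* (32.6 ± 0.888), *Rb1* (31.0 ± 2.38), *Ccnd1*, *Cdkn1c* (18.2 ± 4.01), *Cdk4*, *Cdkn1a* (11 ± 2.13), *Cdk6* and *Ccnd3*. Mean ± SD overlapped between *Rbl2*, *Cdkn1b* and *Rb1*, between *Ccnd1* and *Cdkn1c*, and between *Cdk4* and *Cdkn1a*, and not between the other neighbours. In Cpt1bcKO CMs *Ccnd1* stood at position 2 in place of 5, followed by *Rb1* (27.0 ± 7.77), *Rbl2* (26.2 ± 9.26), *Cdkn1b* (21.3 ± 1.37), *Cdkn1c* (20.9 ± 2.79), *Cdkn1a* (20.7 ± 12.4), *Cdk4*, *Cdk6* and *Ccnd3*. Each of these neighbours from *Rb1* onwards overlapped within mean ± SD. The ratio of *Ccnd1* to *Cdkn1b* per kilobase was 0.449, 0.603 and 0.854 in CtrlCre and 2.15, 2.33 and 1.93 in Cpt1bcKO samples, so that the cyclin was below the inhibitor in each CtrlCre sample and above it in each Cpt1bcKO sample. The ratio of *Ccnd2* to *Cdkn1b* was 2.33 to 3.37 in CtrlCre and 5.91 to 8.10 in Cpt1bcKO samples. These orders and ratios combine values already given and were not tested.

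Promoter sequences, from 250 bases before to 50 bases after an annotated start, were held for 6 of 10 members in the RefSeq table for GRCm38.p6. There was none for *Ccnd1*, *Ccnd2*, *Cdkn1c* and *Rb1*. The words searched on both strands were TTTCCCGC and TTTGGCGC for E2F, CACGTG for the E-box, TGACGTCA for the CRE and GTAAACA for FoxO factors. Among all 32851 promoters of this length, 1.07%, 0.514%, 7.15%, 1.79% and 3.65% held them, in that order. *Cdk4* held CACGTG 4 times, at 172, 118, 98 and 11 bases upstream of the start, and 8 of 32851 promoters (0.0244%) held it as often or more. *Cdk6* held CACGTG once, 220 bases upstream, and the upstream start of *Ccnd3* held GTAAACA 243 bases upstream. None of the 5 words was found in the windows of *Cdkn1b*, *Rbl2* and *Cdkn1a* or at the other start of *Ccnd3*. The *Cdk4* promoter (chr10:127063285-127063584, plus strand) is shown for its repeated E-box, in capitals, and that of *Cdkn1b* (chr6:134920151-134920450, plus strand) because this inhibitor was lower in all Cpt1bcKO samples.
Cdk4: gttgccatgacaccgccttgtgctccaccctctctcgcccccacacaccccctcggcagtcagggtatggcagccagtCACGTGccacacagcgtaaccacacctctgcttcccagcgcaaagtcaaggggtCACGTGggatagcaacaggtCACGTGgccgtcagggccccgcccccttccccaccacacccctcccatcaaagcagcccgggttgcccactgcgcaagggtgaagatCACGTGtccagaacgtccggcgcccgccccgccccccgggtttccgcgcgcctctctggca
Cdkn1b: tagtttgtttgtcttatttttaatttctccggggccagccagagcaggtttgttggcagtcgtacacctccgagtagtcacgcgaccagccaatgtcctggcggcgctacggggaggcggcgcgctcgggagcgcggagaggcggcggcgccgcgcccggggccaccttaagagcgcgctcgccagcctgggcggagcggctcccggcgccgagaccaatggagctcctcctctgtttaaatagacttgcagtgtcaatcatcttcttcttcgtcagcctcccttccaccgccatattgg
GC content was 67.0% in the *Cdk4* and 62.0% in the *Cdkn1b* window. A match is a stretch of letters only, and *Cdk4* itself did not pass the test.

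Other genes of the G1 pathway were counted in lists chosen by name, also with earlier results of these data known. Of 74 genes in 5 lists, 57 were tested and 10 (17.5%) had an unadjusted *P* value below 0.05 with limma, near the 13.9% of all genes. These were 5 higher and 5 lower, and 1 passed adjustment. Among other kinases, cyclins and inhibitors of the G1–S transition, 9 of 13 genes were tested, 3 with a positive and 6 with a negative log2 fold change, and none passed with limma, also unadjusted. *Ccne1*, for cyclin E1, was at 8, 4 and 2 in CtrlCre and 2, 8 and 12 in Cpt1bcKO samples and was too low to test. *Ccne2* had 27, 31 and 15 and then 18, 28 and 25, and its kinase partner *Cdk2* had 44, 39 and 39 and then 38, 42 and 27 (log2 fold change −0.21, unadjusted *P* = 0.452, limma). *Rbl1*, for the pocket protein p107, had 7, 15 and 10 in CtrlCre and 14, 19 and 4 in Cpt1bcKO samples.

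In the list of E2F, DP and DREAM genes, 11 of 16 were tested and 2 passed unadjusted with limma, in opposite directions. *E2f3*, for an activating E2F, had 45, 45 and 38 in CtrlCre and 83, 74 and 56 in Cpt1bcKO samples (log2 fold change 0.71, unadjusted *P* = 0.0126, adjusted *P* = 0.204, limma). *Tfdp2*, for a DP partner of E2F factors, had 776, 757 and 560 and then 467, 402 and 387 (log2 fold change −0.72, unadjusted *P* = 0.00139, adjusted *P* = 0.0665, limma). Neither gene overlapped between the groups, which held for 18.7% of all genes tested. *E2f1* was listed at 0, 1 and 0 in CtrlCre and 2, 11 and 6 in Cpt1bcKO samples and was too low to test. *E2f4*, for an E2F of quiescent cells, had 61, 45 and 57 and then 57, 68 and 52 (log2 fold change 0.12, unadjusted *P* = 0.613, limma).

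Genes that E2F factors switch on for S phase had 11 positive and 2 negative log2 fold changes among 13 tested of 18 listed. Among all 11364 genes tested, 5655 were positive and 5709 negative. The median of the list was 0.12. It was 0.00012 without Cpt1bcKO sample 2 and 0.20 to 0.36 without any other single sample. After scaling to the total without mitochondrially encoded and rRNA genes it was 0.23. *Mcm2*, a subunit of the replicative helicase, had 41, 37 and 38 in CtrlCre and 78, 132 and 82 in Cpt1bcKO samples and rose by a log2 fold change of 1.27 (adjusted *P* = 0.0340, limma). *Mcm5*, another subunit of it, had 12, 5 and 12 and then 15, 34 and 25 (log2 fold change 1.28, unadjusted *P* = 0.0199, adjusted *P* = 0.247, limma). The other 11 tested genes did not pass with limma, also unadjusted. Among them, the proliferation marker *Mki67* had 29, 36 and 43 in CtrlCre and 28, 127 and 49 in Cpt1bcKO samples, of which only Cpt1bcKO sample 2 stood far above the CtrlCre range (unadjusted *P* = 0.190, limma). *Ccnd1* was nearly level in the Cpt1bcKO samples, and a link between *Mki67* and the D-type cyclins was not tested.

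For p53 and its targets, the context of *Cdkn1a*, 13 of 14 genes were tested and 2 were higher and 2 lower at an unadjusted *P* value below 0.05 with limma, none adjusted. At that threshold 6.66% of all genes tested were higher and 7.22% lower. *Phlda3*, a p53 target that restrains AKT, had 21, 17 and 15 in CtrlCre and 33, 33 and 38 in Cpt1bcKO samples (log2 fold change 0.94, unadjusted *P* = 0.00857, limma). *Plk2* had 393, 391 and 266 and then 479, 380 and 612 (log2 fold change 0.48, unadjusted *P* = 0.0483, limma). *Ccng1*, for cyclin G1, had 8456, 7460 and 6438 and then 6540, 4335 and 5580 (log2 fold change −0.45, unadjusted *P* = 0.0320, limma). *Btg2* had 1771, 874 and 974 and then 893, 739 and 690 (log2 fold change −0.58, unadjusted *P* = 0.0385, limma). Cpt1bcKO sample 3, the lowest of all for *Cdkn1a*, was the highest of all for *Phlda3* and *Plk2* and the lowest for *Btg2*. *Trp53* itself had 8, 6 and 18 in CtrlCre and 14, 13 and 14 in Cpt1bcKO samples, and *Mdm2*, for the ligase that removes p53, had 422, 385 and 365 and then 348, 367 and 446 (log2 fold change −0.019, unadjusted *P* = 0.903, limma).

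Genes for the turnover of cyclin D and CIP/KIP proteins had 10 negative and 1 positive log2 fold changes among 11 tested of 13 listed. Of all 11364 genes tested, 5709 had a negative and 5655 a positive value. The median of this list was −0.14, and −0.18 to −0.14 without single samples. It was −0.026 after scaling to the total without mitochondrially encoded and rRNA genes, where signs were not counted again. *Fbxw7*, for a substrate receptor of SCF ubiquitin ligases, had 538, 419 and 453 in CtrlCre and 332, 279 and 368 in Cpt1bcKO samples (log2 fold change −0.53, unadjusted *P* = 0.00947, adjusted *P* = 0.181, limma). *Fbxo31*, for a receptor that targets cyclin D1, had 225, 202 and 197 and then 153, 129 and 153 (log2 fold change −0.52, unadjusted *P* = 0.00974, adjusted *P* = 0.183, limma). Both were without overlap between the groups, as were 9.6% of all genes tested in the lower direction. *Skp2*, for the receptor of p27, was at 5, 9 and 3 in CtrlCre and 5, 17 and 0 in Cpt1bcKO samples and was too low to test. The median of the other G1–S genes was −0.14, −0.028 after that scaling and −0.29 to −0.023 without single samples. For E2F, DP and DREAM genes it was 0.10, 0.21 after that scaling, and was −0.058 without CtrlCre sample 1, −0.0079 without CtrlCre sample 2, −0.079 without Cpt1bcKO sample 1 and −0.040 without Cpt1bcKO sample 3. For p53 and its targets it was −0.019 and 0.092 after that scaling. Without single samples it ran from −0.10 without Cpt1bcKO sample 3 to 0.015 without Cpt1bcKO sample 2. No median of the 5 lists is given as a direction of its list.

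**Figure D4:**
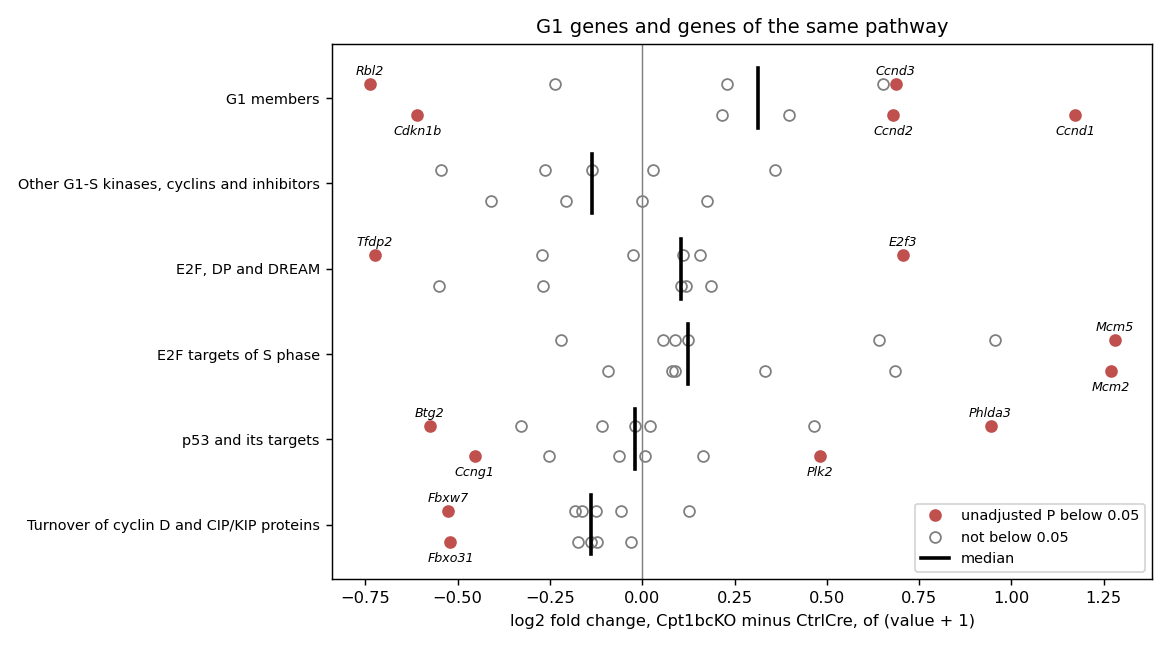
Log2 fold changes of the tested genes in 5 pathway lists and of the 10 members, 1 point per gene, with the median of each list as a line. Points of the lists lie on both sides of 0 with medians between −0.14 and 0.12, and the median of the members is 0.31.

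The cells were labelled as CMs, and the values of *Myh6*, *Tnnt2*, *Tnni3*, *Actc1*, *Myl2*, *Ryr2*, *Pln* and *Actn2* summed to 225449 to 287562 in CtrlCre and 168776 to 199096 in Cpt1bcKO samples. All 8 had negative log2 fold changes, and *Tnni3* and *Pln* passed unadjusted with limma. Because the study reported lower maturation and contraction genes within these CMs, this sum does not measure how many CMs were present. Fibroblast markers summed to 498, 785 and 772 in CtrlCre and 1338, 1289 and 1108 in Cpt1bcKO samples, all 7 tested of 8 listed were higher with an unadjusted *P* value below 0.05 in limma, and *Col1a1* and *Lum* passed adjusted. The fibroblast marker at the lowest level was *Tcf21*, at 5, 5 and 5 in CtrlCre and 14, 4 and 16 in Cpt1bcKO samples. Endothelial markers summed to 1223, 2348 and 2565 in CtrlCre and 2274 to 2608 in Cpt1bcKO samples, with 8 of 8 higher and 1 passing unadjusted. Relative to the CtrlCre mean, the fibroblast sum was 1.82 ± 0.177 and *Ccnd1* 2.20 ± 0.0877 in Cpt1bcKO samples (mean ± SD, *n* = 3), while the CM sum was 0.726 ± 0.0631 and *Cdkn1b* 0.654 ± 0.0421. CtrlCre sample 1 was the lowest of the 6 for the fibroblast sum, the endothelial sum, *Ccnd1* and *Ccnd2*. In Cpt1bcKO samples 1, 2 and 3 the fibroblast sum was at 1.95, 1.88 and 1.62 of the CtrlCre mean. In the same samples *Ccnd1* was at 2.27, 2.24 and 2.10, *Ccnd2* at 1.33, 1.6 and 1.88, and *Ccnd3* at 1.63, 1.49 and 1.74. Errors from counting were not computed, so the order of 3 samples is not read as a link to a cell type. Fibroblasts and endothelial cells also express cyclin D genes, and the part of these cells in the values of the members was not tested.

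Mural cell markers summed to 3444 to 4824 in CtrlCre and 2841 to 3171 in Cpt1bcKO samples, 4 higher and 3 lower of 7 tested, and the largest part of this sum was *Abcc9*, which CMs express too and which fell by 0.80 on the log2 scale (adjusted *P* = 0.0123, limma). Macrophage and leukocyte markers summed to 96 to 144 and 114 to 134, with none of 5 tested passing in limma, also unadjusted. Erythroid markers summed to 1 to 20 and Schwann cell markers to 13 to 37 over all samples. Atrial markers summed to 146 to 265 in CtrlCre and 477 to 720 in Cpt1bcKO samples, mostly from *Nppa*, which rose by 1.87 on the log2 scale (adjusted *P* = 0.00917, limma). Mitotic genes summed to 38, 46 and 65 in CtrlCre and 53, 236 and 69 in Cpt1bcKO samples. Cpt1bcKO sample 2 stood apart here, and a link of these sums to the D-type cyclins was not tested. No marker found in the table was at 0 in all samples.

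**Figure D5:**
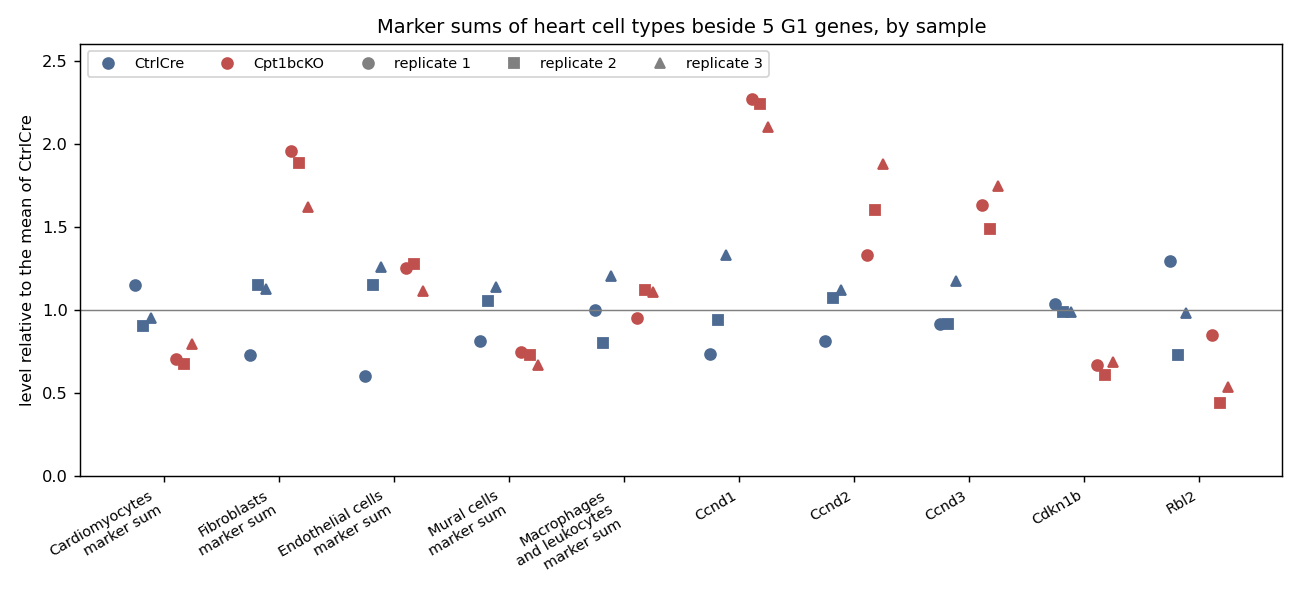
Summed normalized counts of 5 marker lists and the values of *Ccnd1*, *Ccnd2*, *Ccnd3*, *Cdkn1b* and *Rbl2* in each sample, relative to the mean of the CtrlCre samples. In Cpt1bcKO samples the fibroblast sum averages 1.82 and *Ccnd1* 2.20, and the CM sum averages 0.726 and *Cdkn1b* 0.654.

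Among 6796 tested genes with a mean of at least 50, those whose log2 values followed *Ccnd1* most closely over the 6 samples were *Auts2*, *Col1a2*, *Col15a1*, *Vcan* and *Ap1b1*, with Pearson's *r* from 0.980 to 0.990. *Col1a2* is on the fibroblast marker list and had 40, 56 and 87 normalized counts in CtrlCre and 121, 129 and 131 in Cpt1bcKO samples. These correlations describe 6 samples in 2 groups. They include the difference between the groups.

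Several members share exon sequence with a gene on the opposite strand, and reads on several genes were left out of the counts. The library kit keeps strand, but the use of strand in counting is not given in the sources used here, so these values are less certain. The shared part was 30.7% of the exon bases of *Cdkn1c* (with *Gm44732*), 23.4% of *Ccnd1* (with *LTO1*, whose mean value was 22.5) and 19.7% of *Cdk4* (with *Tspan31*, mean value 53.7). It was 11.8% or less with any gene in *Ccnd2*, *Ccnd3*, *Cdk6*, *Cdkn1a*, *Rb1* and *Rbl2*, and *Cdkn1b* shared none.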

How the data were processed

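CMs of 3 CtrlCre and 3 Cpt1bcKO mice were profiled by RNA-seq (stranded total RNA, single-end reads). Groups were taken from the sample labels. The authors trimmed reads with Trimmomatic, aligned them to mm10 (GRCm38.p5) with STAR and counted reads on exons per gene with featureCounts, leaving out reads on several genes or regions (versions 0.36, 2.5.4b and 1.6.0 in the submitters' processing notes). The annotation release is not given in the sources used here. The deposited signal values are these counts divided by a size factor for each sample (DESeq2, by the authors) and rounded to whole numbers, so raw counts were not recovered and no count model was used. Group means, log2 fold changes and p-values computed by the authors were not used.

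Genes that reached 10 or more in 3 or more samples were tested with limma 3.58.1 (R 4.3.3; lmFit and eBayes with trend) on log2(value + 1), unpaired and without covariates, with Benjamini–Hochberg adjustment over all 11364 genes tested. The members and all gene lists were chosen with earlier results of these data known. Named genes were the members, *Cpt1b*, genes of 5 pathway lists with an unadjusted *P* value below 0.05, 10 pathway genes whatever their values, and the 5 genes most like the member with the smallest *P* value. Marker lists are described by sums. Levels per kilobase used exon lengths from GENCODE vM21, which matched 16427 of 16448 genes by identifier. Coordinates of genes are those of the deposited table. Promoters are from RefSeq. Alternatives were other scalings, filters, pseudocounts (0.5 and 5), thresholds, 1 prior variance, a block for replicate number, and leaving out each sample. The fit was tested on simulated data. Figures were drawn with matplotlib 3.10.9 in Python 3.11.15, and alignments were made with Biopython 1.88.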

Additional observations from a re-analysis of the deposited data

How the results depend on the processing

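Each member kept its direction under all other scalings, filters and pseudocounts, and the only reversal was *Rb1*, at 0.00048 without Cpt1bcKO replicate 3 (−0.43 to 0.00048 without single samples). The number of genes passing the adjusted test (178) was 41 with 1 prior variance for all genes, 324 at an adjusted *P* value below 0.1 and 40 to 305 when single samples were left out, lowest without Cpt1bcKO replicate 2 and highest without Cpt1bcKO replicate 1. The number of members passing it (1) was 0 with 1 prior variance and 0 to 2 without single samples. With 1 prior variance, *Cpt1b* was at −2.27 with an adjusted *P* of 0.0563 from limma, and without single samples at −2.56 to −2.03. The number of pathway genes passing unadjusted (10) was 6 to 11 without single samples, lowest without Cpt1bcKO replicate 3. The cause of these shifts was not tested.

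The titles give replicate numbers that both groups share. Deviations from group means correlated at 0.376, 0.255 and 0.0684 for samples 1, 2 and 3 (Pearson's *r* across genes) and at −0.329 to 0.147 between different numbers, and CtrlCre sample 3 correlated better with another number, so the numbers were not taken to pair the samples. With the replicate block, 603 genes (5.31%) and 3 members passed adjusted, *Ccnd1* (0.00785), *Ccnd2* (0.00474) and *Rbl2* (0.0113, limma). Alternatives chosen after seeing the data were sex as covariate, read from *Xist*, with 574 genes and 4 members, these 3 (*Rbl2* at 0.0233) and *Cdkn1b* (0.0483, limma), and the replicate block with scaling to the total without mitochondrially encoded and rRNA genes, with 594 genes and 3 members. Low values such as those of *Ccnd3*, *Cdk4* and *Cdkn1a* rest on few reads, which limits the precision of their fold changes.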
